A study of Lachancea kluyveri with 16 samples.

Results

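Transcript levels of wild-type Lachancea kluyveri, a budding yeast that branched from the Saccharomyces cerevisiae lineage before the whole-genome duplication, were compared between arrays labelled YPGly and arrays labelled YPD. The contrast rests on 8 of the 16 arrays of the series, chosen by their titles: 4 wild-type (WT) cultures labelled YPD and 4 labelled YPGly, with 1 single-colour Agilent array per culture. YPD is a rich medium with glucose and YPGly is a rich medium with glycerol. The WT strain was JYL1897, a MATa ura3 strain, and the other 8 arrays hold the same media for SEF1-VP16, a strain of the same background that is 1 clone and expresses Sef1, a transcription factor, fused to the VP16 activation domain. All cultures were grown overnight in YPD at 28 °C, diluted to an optical density of 0.2 per ml into 1 of the 2 media and grown for 5.5 h at 30 °C.

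Yeast cells that have glucose ferment it and keep the genes for other carbon sources off through glucose repression. Glycerol cannot be fermented: it is taken up, phosphorylated by the glycerol kinase Gut1, oxidised and respired through the mitochondrial tricarboxylic acid (TCA) cycle and electron transport chain. In S. cerevisiae the switch away from glucose also turns on gluconeogenesis, the glyoxylate cycle, peroxisomal fatty acid oxidation and carriers for acetate and lactate, while genes for ribosomes and cell division follow the growth rate.

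Most of the tested genes listed as markers of glucose repression in S. cerevisiae went against the labels. A gene was called when its change was at least 1.5-fold with a Benjamini-Hochberg adjusted p of at most 0.05 in limma. Of 16 tested L. kluyveri genes that carry the names of such markers, 12 were called lower on the arrays labelled YPGly and 2 higher, with a median log2 change of -4.66, beside 20.5% lower and 27.4% higher among all genes tested. Their mean log2 level lay between 1.55 and 1.96 on the 4 arrays labelled YPD and between -2.07 and -1.73 on the 4 labelled YPGly, so the groups did not overlap. Invertase SUC2, which glucose also represses in S. cerevisiae, is not among these markers and was higher where labelled YPGly, by at least 33.7-fold. The labels also divide by slide, with 1 slide for YPD and another for YPGly, so medium, slide and label cannot be told apart. Groups are therefore called by their labels, and "higher" and "lower" below describe the arrays labelled YPGly relative to those labelled YPD. Levels are log2 signals relative to the 75th percentile of the array, which is 0 on this scale, and they are compared between arrays for 1 gene but not between genes.

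Both groups were measured well. The share of gene probes well above background was 94.5 to 99.95% where labelled YPD and 98.8 to 99.0% where labelled YPGly (difference in means 0.614 percentage points, p = 0.97, exact 2-sided permutation test, n = 4 and 4). The 75th percentile of the processed signal was 10998 to 17768 where labelled YPD and 20236 to 24035 where labelled YPGly, with no overlap (p = 0.029, exact 2-sided permutation test, n = 4 and 4, the smallest p this design allows). Arrays of 1 group correlated at 0.977 to 0.987 where labelled YPD and at 0.990 to 0.996 where labelled YPGly, and the median SD of a gene over 4 arrays was 0.22 and 0.12 on the log2 scale. The first principal component, which separated the labels, held 87.7% of the variance of the 8 arrays. The actin gene ACT1 (SAKL0B00968g) stood at 3.27 to 3.87 where labelled YPD and at 3.75 to 3.93 where labelled YPGly, and SEF1 (SAKL0F12342g) at -2.05 to -1.71 and -1.99 to -1.64. For both genes the groups overlapped and neither was called (log2 change 0.24 ± 0.12, SE, adjusted p = 0.071, and 0.09 ± 0.10, adjusted p = 0.43, limma).

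Of 5266 genes tested, 1442 were called higher (27.4%) and 1079 lower (20.5%), together 47.9%. In 2362 of these 2521 genes all 4 arrays of one label lay beyond all 4 of the other, as did 62.0% of all genes tested. More genes were higher, but the large changes were mostly lower: 103 genes were higher and 220 lower by at least 4-fold, 8 against 54 by at least 16-fold, and 1 against 17 by at least 64-fold. The median change of all genes was 0.15 on the log2 scale. Scaling arrays to their median in place of the 75th percentile shifted this value by -0.12, to 0.04, and gave 1170 higher and 1264 lower. Of the 2512 called genes with a second probe, 2492 changed the same way on that probe, and 63 differed between probes by more than 1 on the log2 scale.

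**Figure D1:**
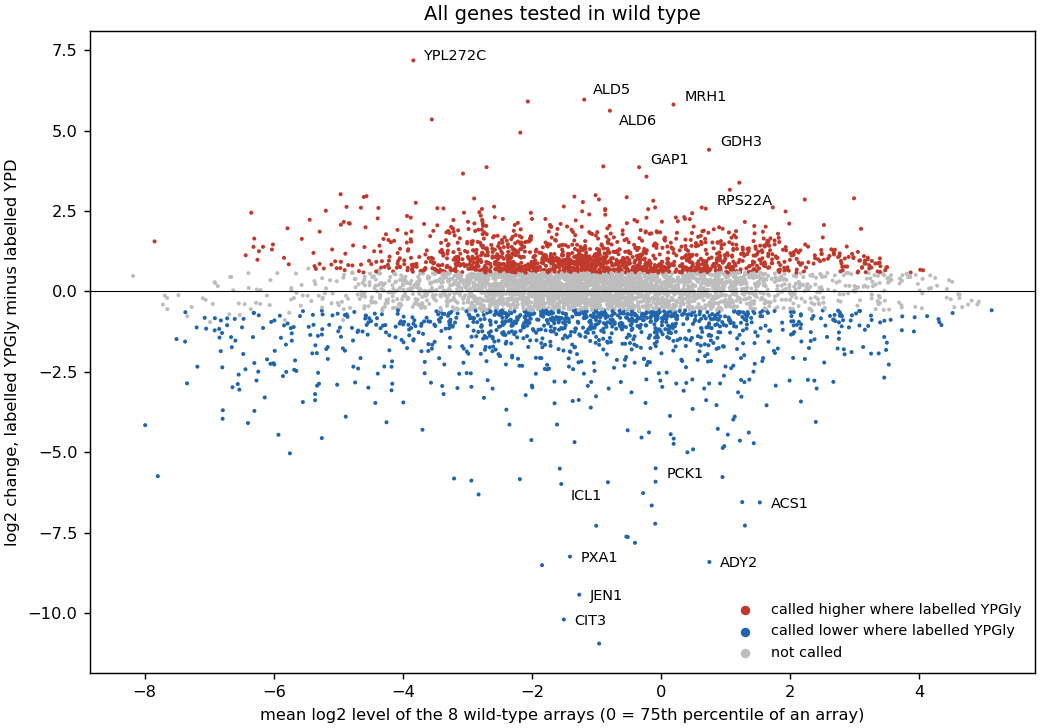
Log2 change in WT (arrays labelled YPGly minus arrays labelled YPD, n = 4 and 4) against the mean log2 level of the 8 arrays, with 1 point for each of 5266 genes. Red points are the 1442 genes called higher, blue points the 1079 called lower and grey points were not called; the blue cloud reaches -10.95 and the red cloud 7.19.

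Genes named for the use of acetate, lactate and propionate were among the largest decreases. CIT3 (SAKL0B02926g), named for a mitochondrial enzyme that joins acetyl or propionyl groups to oxaloacetate, stood at 3.74, 3.84, 3.34 and 3.46 on the 4 arrays labelled YPD and at -6.96, -6.49, -6.28 and -6.70 on those labelled YPGly. Its log2 change of -10.20 ± 0.17 (SE, adjusted p = 4.3e-17, limma) was exceeded only by SAKL0A03696g, a gene with no name here, at -10.95 ± 0.24. PDH1 (SAKL0B02948g), the neighbour of CIT3 in locus-tag order, named for a gene of propionate breakdown in S. cerevisiae, changed by -7.22 ± 0.19 on the same scale, that is 149-fold.

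The lactate and pyruvate carrier gene JEN1 (SAKL0F02178g) read 3.85, 3.34, 3.24 and 3.37 where labelled YPD and -6.13, -6.04, -5.77 and -6.0 where labelled YPGly, a 691-fold difference (log2 -9.43 ± 0.20, SE, adjusted p = 5.5e-16, limma). ADY2 (SAKL0D09328g), the acetate carrier, read 5.29, 5.26, 4.69 and 4.58 against -3.50, -3.55, -3.22 and -3.56, and was lower by 341-fold. ACS1 (SAKL0D14608g), which activates acetate to acetyl-CoA, read 5.40, 4.84, 4.59 and 4.41 against -1.55, -1.88, -1.56 and -2.01, and was lower by 94.5-fold. In each of these genes all 4 arrays labelled YPD lay far above all 4 labelled YPGly, and the gap was several times the spread within either label.

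Gluconeogenesis, which rebuilds sugar phosphates from small carbon units, and the glyoxylate cycle had 6 tested members with a median of -3.77. Of these, 5 were called lower and none higher, beside 20.5% lower and 27.4% higher over all genes. Isocitrate lyase ICL1 (SAKL0F08756g) read 1.69, 1.63, 1.20 and 1.27 where labelled YPD and -4.38, -4.65, -4.46 and -4.67 where labelled YPGly (log2 change -5.99 ± 0.20, 63.5-fold). Phosphoenolpyruvate carboxykinase PCK1 (SAKL0E15048g) read 3.11, 3.01, 2.55 and 2.82 against -3.10, -3.08, -2.86 and -3.14 (-5.92 ± 0.14, 60.4-fold). The gene set did not move by a common amount: the succinate-fumarate carrier SFC1 changed by -4.69, fructose bisphosphatase FBP1 by -2.86 and cytosolic malate dehydrogenase MDH2 by -1.77. Malate synthase MLS1 (SAKL0E10846g), the partner of Icl1 in the glyoxylate cycle, was the member not called, at -0.39 ± 0.13 (adjusted p = 0.014, limma, below the 1.5-fold limit).

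Genes for the use of acetate, ethanol and lactate split. Of 17 tested, 8 were called lower (47.1%) and 4 higher (23.5%), beside 20.5% lower and 27.4% higher over all genes. The list median was -0.38. Besides JEN1, ADY2 and ACS1, the lower members were the carnitine carriers and acetyltransferases CRC1, YAT1 and YAT2, which move acetyl groups into mitochondria, the mitochondrial aldehyde dehydrogenase ALD4 (-2.27), and a second JEN1 gene. The other aldehyde dehydrogenase genes went the other way. ALD6 (SAKL0H10252g), which makes acetate in the cytosol of S. cerevisiae, read -3.16, -3.70, -3.75 and -3.81 where labelled YPD and 1.71, 1.96, 2.24 and 2.16 where labelled YPGly, 49.2-fold higher (log2 change 5.62 ± 0.14). ALD5 (SAKL0F09108g), named for a mitochondrial isoform, read -3.73, -4.41, -4.18 and -4.39 against 1.76, 1.86, 1.63 and 1.93, 62.5-fold higher (5.97 ± 0.15). Both genes lay below their array's 75th percentile on every array labelled YPD and above it on every array labelled YPGly.

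Some genes that share an S. cerevisiae name moved in different directions. The 3 genes named JEN1 changed by -9.43 (SAKL0F02178g), -1.45 (SAKL0G14938g) and 2.63 (SAKL0D04510g) on the log2 scale, all called, the last with 3 of 4 arrays labelled YPD well above background. Of the 2 genes named CYB2, for the lactate dehydrogenase of the mitochondrial intermembrane space, SAKL0G16852g was higher by 1.63 ± 0.12 and SAKL0F16610g, at -0.34 ± 0.08, was below the fold limit. Of 4 genes named SPS19, for a dienoyl-CoA reductase of the peroxisome, 3 were lower, by up to 365-fold for SAKL0H09460g, and SAKL0D11484g was higher by 3.67-fold.

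Peroxisomal fatty acid oxidation was lower as a group, with a median of -1.05. Of 29 tested genes, 17 were called lower and 1 higher, beside 20.5% lower and 27.4% higher over all genes. The enzymes of the pathway changed most. PXA1 (SAKL0H06908g), part of the carrier that brings long fatty acids into the peroxisome, read 2.90, 2.90, 2.46 and 2.59 where labelled YPD and -5.56, -5.78, -5.09 and -5.72 where labelled YPGly, a 304-fold difference (adjusted p = 4.5e-12, limma). Acyl-CoA oxidase POX1, the bifunctional FOX2 and thiolase POT1, which catalyse the successive steps of the cycle, were lower by 24.9-fold, 28.1-fold and 54.7-fold, and peroxisomal catalase CTA1, which removes the peroxide they form, changed by -3.54 on the log2 scale. Peroxins, which build the organelle, changed less. PEX11, which acts in peroxisome division, changed by -2.62 and PEX5, the receptor for imported enzymes, by -1.29, while PEX13 (-0.10) and PEX19 (-0.04) were not called.

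Glycerol genes went both ways. All 8 tested members were called, 5 lower and 3 higher, beside 20.5% lower and 27.4% higher over all genes. The list median was -0.78. The lower members were the glycerol symporter STL1 (-1.79 ± 0.12), glycerol kinase GUT1 (-1.54 ± 0.12), the mitochondrial glycerol phosphate dehydrogenase GUT2 (-0.88 ± 0.10), dihydroxyacetone kinase DAK1 (-2.07 ± 0.15) and the glycerol phosphate phosphatase GPP1 (-0.69 ± 0.13), which makes glycerol. GPD1, which makes glycerol phosphate from a glycolytic intermediate, was higher by 0.95 ± 0.11, the glycerol channel FPS1 by 1.35 ± 0.10 and GUP1, first described in glycerol uptake, by 1.15 ± 0.10. GUT1 (SAKL0H25938g) and FPS1 (SAKL0H25916g) are neighbours in locus-tag order. GUT1 read 1.13, 1.00, 0.72 and 0.99 where labelled YPD and -0.62, -0.69, -0.31 and -0.69 where labelled YPGly, and FPS1 read -1.19, -0.79, -1.22 and -1.10 against 0.38, 0.40, 0.23 and 0.10, so that 2 adjacent genes moved in opposite directions on every array.

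The 21 genes that the study lists for the TCA cycle had a median of -0.56. Of these, 10 were called lower and 1 higher, beside 20.5% lower and 27.4% higher over all genes. The range was wide: CIT3 was lower by 1179-fold, the NADP isocitrate dehydrogenase IDP3 by 21.9-fold and malate dehydrogenases MDH3 and MDH2 by 4.95-fold and 3.42-fold, while the other called members changed less. KGD2 of the ketoglutarate dehydrogenase complex changed by -1.54 ± 0.12, fumarase FUM1 by -1.02 ± 0.12 and succinate dehydrogenase SDH2 by -0.92 ± 0.12. Citrate synthase CIT1 (-0.43 ± 0.15) and isocitrate dehydrogenase IDH1 (0.06 ± 0.16) were not called. Mitochondrial malate dehydrogenase MDH1 was the member called higher, at 0.62 ± 0.09. That call lay close to the fold limit and was lost with median centring, with the second probe and without WT YPGly replicate 3, where the change was 0.51, 0.57 and 0.58.

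Respiratory chain and ATP synthase genes followed the same direction in small steps, with a median of -0.63. Of 26 tested, 14 were called lower and 2 higher, beside 20.5% lower and 27.4% higher over all genes. The Rieske iron-sulphur protein RIP1 (-1.49 ± 0.12) and ATP20 of the ATP synthase (-1.43 ± 0.13) changed most among the lower members. The higher members were genes named for NADH dehydrogenases of the mitochondrial inner membrane, NDE2 (SAKL0D09658g, 1.52 ± 0.18) and NDI1 (SAKL0C09438g, 0.83), whereas the other gene named NDI1 (SAKL0D01056g) changed by -0.85.

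Few glycolysis and fermentation genes were called. Of 17 tested, 2 were called higher, 2 lower and 13 were not called, with a median of 0.08, beside 27.4% higher and 20.5% lower over all genes. Median centring gave 1 higher and 4 lower with a median of -0.05, and quantile normalization 6 higher and 2 lower with a median of 0.41. In SEF1-VP16 the list had 9 called higher, 1 lower and a median of 0.64, though no member had a called difference between the strains. Phosphofructokinase PFK1 (0.87 ± 0.09) and hexokinase HXK2 (0.67 ± 0.14) were higher, though HXK2 fell below the fold limit with median centring, at 0.56. Pyruvate decarboxylase, which commits pyruvate to fermentation, is named for 3 genes: SAKL0F04334g read 4.01, 3.95, 3.48 and 3.61 where labelled YPD and 1.20, 0.93, 1.04 and 0.78 where labelled YPGly, 6.84-fold lower, and the other 2 genes named PDC1 were not called. For TDH3 (SAKL0H24926g, -0.73 ± 0.19), the remaining member called lower, the second probe gave -4.63, and the call was lost without WT YPD replicate 2 (-0.57).

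Of 17 genes for sugar sensing and transport, 7 were called lower (41.2%) and 4 higher (23.5%), with a median of -0.40. Over all genes tested, 20.5% were lower and 27.4% higher, so the share called higher was below that of all genes. Both genes named RGT2, for a glucose sensor of the plasma membrane, were lower: SAKL0B00264g by 59-fold (log2 -5.88 ± 0.23) and SAKL0D10450g by 10.7-fold. HXT3 was lower by 8.10-fold, while the 2 genes named HXT1 changed by -3.68 (SAKL0D14960g) and 1.16 (SAKL0B12540g). The repressor gene MIG1 (-1.28 ± 0.15) and the activator gene ADR1 (-1.20 ± 0.13), whose product turns on peroxisomal and ethanol genes in S. cerevisiae, were both lower, and CAT8, the activator of gluconeogenic genes, was not called (-0.40 ± 0.22, adjusted p = 0.12, limma).

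Genes for disaccharides also went both ways. The maltose transporter MAL11 (SAKL0A05676g) read 3.47, 2.94, 3.40 and 3.28 where labelled YPD and -4.74, -3.86, -4.10 and -4.70 where labelled YPGly, 197-fold lower, and both its neighbours named IMA1, for isomaltase, were lower, with log2 changes of -4.72 (SAKL0A05654g) and -2.31 (SAKL0A05698g). Invertase SUC2 (SAKL0B00220g), which is repressed by glucose in S. cerevisiae and was chosen here after its values were seen, was higher: it read -5.80, -6.17, -6.36 and -6.57 where labelled YPD, where 3 of 4 arrays were well above background, and -0.79, -1.02, -0.67 and -1.03 where labelled YPGly (40.7-fold, with a lower bound of 33.7-fold, adjusted p = 2.0e-08, limma).

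**Figure D2:**
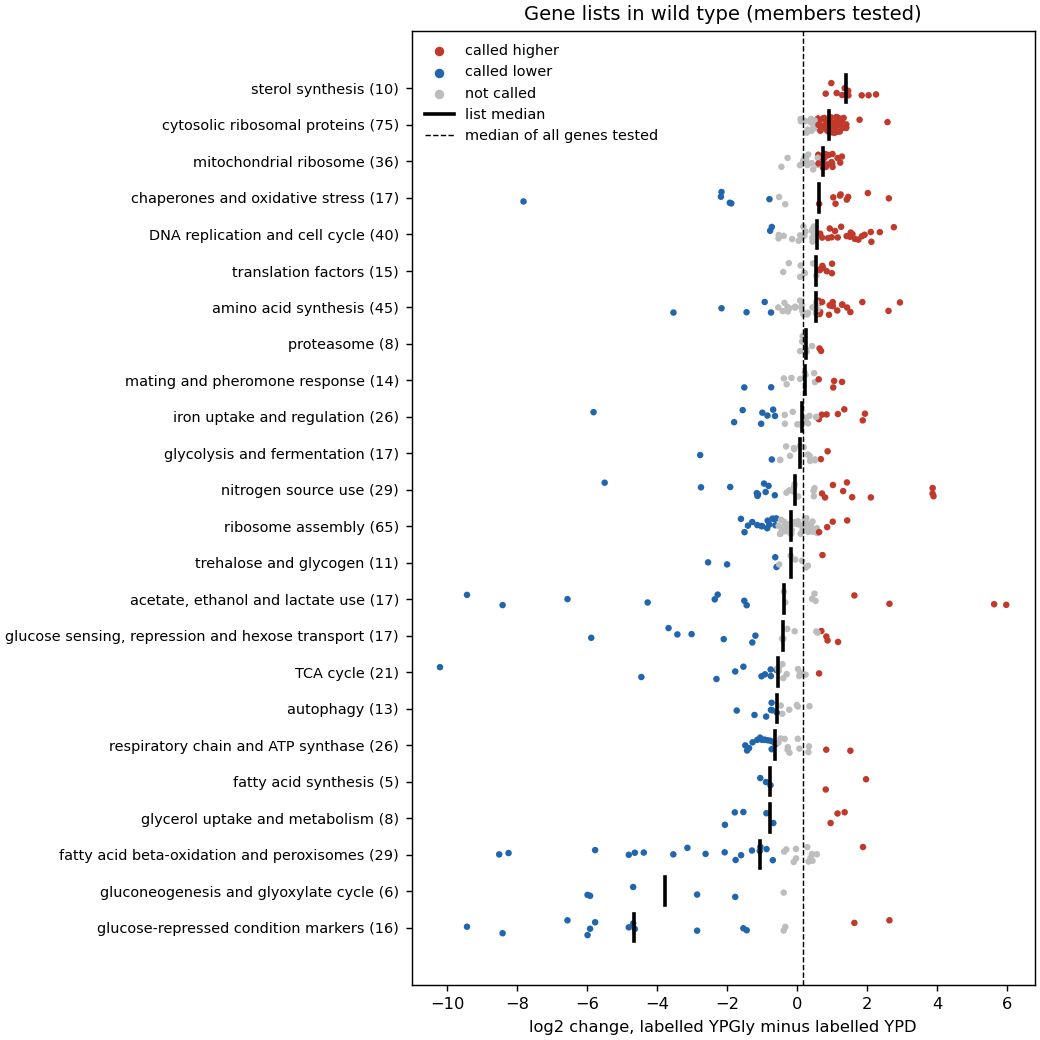
Log2 change in WT (arrays labelled YPGly minus arrays labelled YPD) of the tested members of 24 gene lists, with 1 point per gene, the number of members tested in parentheses, a black bar at the list median and a dashed line at the median of all 5266 genes, 0.15. Sterol synthesis (median 1.40) lies at the top and the glucose-repressed markers (-4.66) at the bottom.

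Ribosomal protein genes were higher as a body. Of 75 tested, 58 were called higher and none lower, all 75 had a log2 change above 0 at the scaling used, and the median was 0.89, beside 27.4% called higher and a median of 0.15 over all genes. The mean level of the list was 1.86 to 2.55 on the arrays labelled YPD and 3.02 to 3.30 on those labelled YPGly. RPS22A (SAKL0C04488g) changed most, from -0.56, -0.79, 0.06 and -1.10 to 1.74, 2.43, 1.78 and 1.97 (5.96-fold), and RPL38 followed at 3.43-fold, while RPL3 (0.10 ± 0.14) and RPS4B (0.09 ± 0.13) were not called. Mitochondrial ribosomal proteins followed, with 23 of 36 called higher, none lower and a median of 0.74, led by MRPS28 (2.42-fold) and IMG2 (2.34-fold). Translation factors had 7 of 15 higher, none lower and a median of 0.54. The elongation factor genes TEF2 (-0.40 ± 0.21) and EFT2 (-0.24 ± 0.15) were not called.

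The factors that assemble ribosomes did not share this direction in WT. Of 65 tested, 4 were called higher (6.15%) and 14 lower (21.5%), with a median of -0.17, beside 27.4% higher and 20.5% lower over all genes. The share called lower was thus near that of all genes, and the share called higher was below it. In SEF1-VP16 the same list leaned the other way, with 15 called higher, 7 lower and a median of 0.14. The difference between the strains was called for 3 of the 65 genes, beside 1.14% of all genes. NOP56 (1.43 ± 0.21), GAR1 (1.01) and NOP1 (0.85), core proteins of the small nucleolar RNA particles that modify ribosomal RNA, were higher. NSA2 (-1.61 ± 0.20) and NOP6 (-1.51 ± 0.22), which act in the assembly of the large and the small subunit, and the RNA helicase ROK1 (-1.41 ± 0.17) were lower, but on the second probe of NOP6 the change was -0.58 and not called.

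Sterol synthesis was the list in which every tested member was called one way, beside 27.4% higher and 20.5% lower over all genes. All 10 genes were higher, between 0.81 for ERG13 and 2.25 for ERG4, with a median of 1.40. ERG4 (SAKL0H22000g), the last enzyme of the ergosterol pathway, read -0.28, -0.95, -0.89 and -0.60 where labelled YPD and 1.65, 1.41, 1.62 and 1.61 where labelled YPGly (4.75-fold, adjusted p = 6.4e-10, limma). The group held early steps, such as HMG1 (0.97 ± 0.11), late steps, such as ERG6 (2.04 ± 0.13) and ERG11 (1.46 ± 0.10), and the sterol-responsive activator gene UPC2 (1.35 ± 0.20). Fatty acid synthesis was split, with 3 of 5 genes lower and 2 higher: the synthase genes FAS1 (-1.06 ± 0.10) and FAS2 (SAKL0A03454g, -0.77 ± 0.10) and the carboxylase ACC1 (-0.89 ± 0.10) were lower, while another gene named FAS2 (SAKL0E08580g, 1.96, dim on 1 array labelled YPD) and the elongase FEN1 (0.81) were higher.

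The 40 tested genes of DNA replication and the cell cycle had a median of 0.57. Of these, 20 were called higher and 2 lower, beside 27.4% higher and 20.5% lower over all genes. DBF4 (SAKL0D02574g), which activates the kinase that starts replication, read -5.22, -5.26, -4.74 and -5.51 where labelled YPD and -2.47, -2.21, -2.55 and -2.46 where labelled YPGly (6.76-fold). It was well above background on 3 of the 4 arrays labelled YPD. The clamp loader subunit RFC5 (5.12-fold), the cyclin PCL2 (4.33-fold), the polymerase subunit POL32 (4.28-fold), the clamp POL30 (1.84 ± 0.10) and CDC45 (1.57 ± 0.16) were higher, whereas ORC2 of the origin recognition complex (-0.73) and RNR2 of ribonucleotide reductase (-0.78 ± 0.19) were lower. The RNR2 call was lost without WT YPD replicate 1 (-0.58).

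Nitrogen genes held some of the strongest increases and decreases at the same time. Of 29 tested, 10 were called higher and 10 lower (34.5% each), beside 27.4% higher and 20.5% lower over all genes. The median of -0.08 turned to 0.08 with quantile normalization. The general amino acid permease GAP1 (SAKL0D04664g) read -2.27, -2.13, -2.40 and -2.28 where labelled YPD and 1.59, 1.64, 1.59 and 1.54 where labelled YPGly (14.5-fold). The ammonium permease MEP2 (SAKL0E12254g) read -2.63, -3.0, -3.17 and -2.55 against 1.12, 0.99, 0.94 and 1.15 (14.8-fold), and UGA4 (SAKL0E14806g), for a permease of gamma-aminobutyrate, was higher by 14.6-fold. Another gene named UGA4 (SAKL0G14762g) was not called in WT (log2 change -0.11) and was lower in SEF1-VP16 (-1.31, interaction called). Urea amidolyase, named DUR1-2 (SAKL0H10560g), was higher by 11.9-fold. The lower members included the serine and threonine deaminase CHA1 (SAKL0C00418g, 45.3-fold), NAD glutamate dehydrogenase GDH2 (-2.75 ± 0.13) and the proline permease PUT4 (-1.92 ± 0.18). GDH3 (SAKL0D14982g), named for the NADP enzyme that fixes ammonium into glutamate, moved opposite to GDH2, from -1.25, -1.51, -1.44 and -1.64 to 2.90, 2.99, 2.90 and 3.00 (21.2-fold, adjusted p = 1.8e-16, limma).

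Amino acid synthesis was more often higher, with a median of 0.53. Of 45 tested, 18 were called higher and 5 lower, beside 27.4% higher and 20.5% lower over all genes. CYS3 (7.62-fold), MET6 (1.86 ± 0.13) and MET17 (1.52 ± 0.22) of sulphur amino acid synthesis and ARG8 (6.08-fold) of arginine synthesis were higher, ARG8 with 3 of 4 arrays labelled YPD well above background. LEU9 (SAKL0F05170g) of leucine synthesis was lower by 11.6-fold and LYS21 (SAKL0H09746g) of lysine synthesis by 4.48-fold.

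Stress genes did not form a single class. Of 17 chaperone and oxidative stress genes, 9 were called higher and 6 lower, beside 27.4% higher and 20.5% lower over all genes. The higher members were chaperones: the small heat shock protein HSP26 (6.12-fold), SIS1 (2.01 ± 0.09), YDJ1 (1.45 ± 0.23), HSP104 (1.24 ± 0.09) and HSP60 (1.22 ± 0.11). HSP30 (SAKL0B06050g), a membrane protein that restrains the plasma membrane proton pump, read 3.56, 3.81, 3.22 and 3.43 where labelled YPD and -4.33, -4.35, -4.23 and -4.34 where labelled YPGly (226-fold lower), and cytosolic catalase CTT1 (-1.93 ± 0.15), HSP12 (-1.89 ± 0.22) and HSP31 (4.53-fold lower) went with it. The remaining lower members were GRE2 (-2.16), for a reductase, and MSN2 (-0.80), for an activator of stress genes.

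Storage carbohydrate genes were called lower in 4 of 11 cases and higher in 1, beside 20.5% lower and 27.4% higher over all genes. The glucoamylase SGA1 (5.84-fold) and the acid trehalase ATH1 (4.01-fold), which release glucose from glycogen and trehalose, changed most. Autophagy genes were called lower in 7 of 13 cases and never higher, with a median of -0.59, from ATG22 (SAKL0E02046g, -1.73 ± 0.18) to ATG8 (-0.23 ± 0.16) and ATG9 (0.35 ± 0.11), which were not called. Proteasome subunits were higher in 2 of 8 cases, RPT2 and PRE7, a share near the 27.4% of all genes, and in none with median centring. The calls of RPT2, at 0.56 without WT YPD replicate 4, and of the glycogenin GLG2, at -0.48 without WT YPD replicate 1 and -0.58 without WT YPGly replicate 2, were also lost. Mating genes were higher in 4 of 14 cases and lower in 2, shares near or below the 27.4% and 20.5% of all genes. The higher ones included the alpha-factor receptor STE2 (1.05 ± 0.10) and its regulator SST2 (1.28 ± 0.08), and FUS1, for a protein of cell fusion, was lower (-1.51 ± 0.15).

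Iron genes, which Sef1 controls in Candida albicans, were spread with 7 of 26 called higher and 8 lower and a median of 0.13, beside 27.4% higher and 20.5% lower over all genes. In 6 of the 26 the change differed between the strains (interaction called, beside 1.14% of all genes). ARN4 (SAKL0E00132g), named for a siderophore carrier, read -0.10, -0.43, -0.47 and -0.19 where labelled YPD and -6.0, -6.05, -6.20 and -6.22 where labelled YPGly (56.4-fold lower). The heme oxygenase HMX1 (-1.80 ± 0.21) and ARN1 (-1.56 ± 0.18) were also lower. The reductase gene FRE1 (SAKL0F10582g, 1.93 ± 0.12), the copper carrier CTR3 (1.87 ± 0.08) and the multicopper oxidase FET3 (0.70 ± 0.11) were higher, while the permease FTR1 (0.25 ± 0.12) and the regulator AFT1 (0.54 ± 0.12) were not called. Of 718 tested genes that the study assigned to Sef1 binding peaks, 200 were called higher and 201 lower (median 0.04), beside 27.4% and 20.5% of all genes, and 174 higher and 228 lower with median centring (median -0.07).

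**Figure D3:**
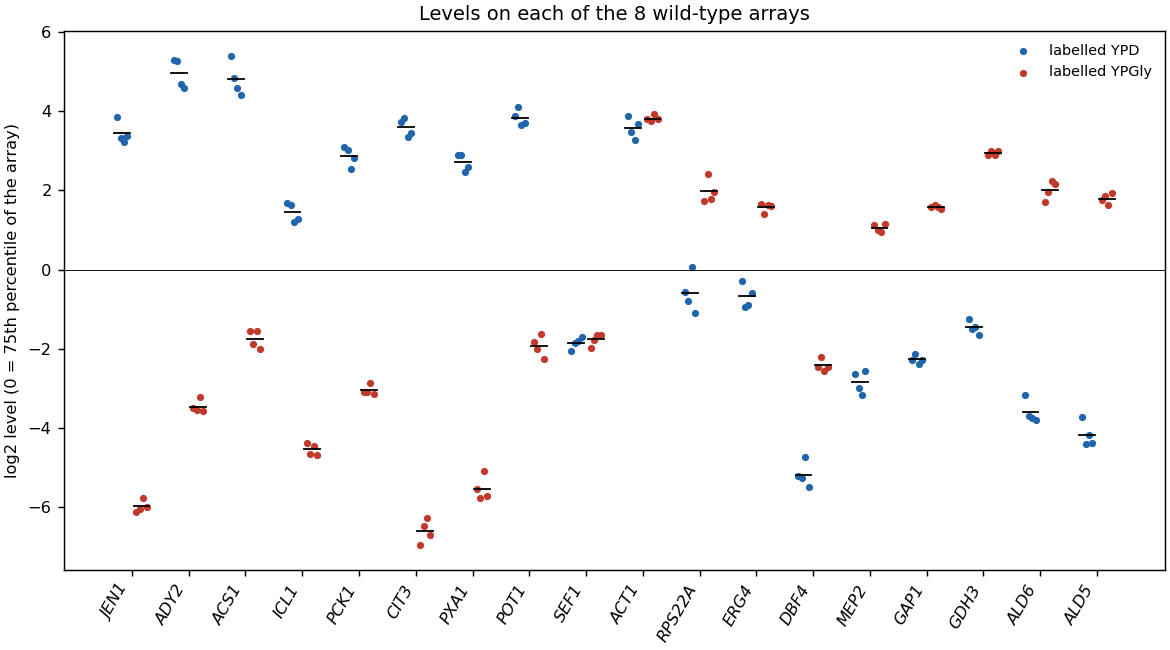
Log2 level of 18 genes on each of the 8 WT arrays, where 0 is the 75th percentile of the array, points are single arrays (blue labelled YPD, red labelled YPGly) and black bars are group means. SEF1 and ACT1 overlap between labels and the other 16 genes, among them JEN1 (SAKL0F02178g) and ALD6, do not.

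Some of the largest changes belonged to none of the lists other than that of the Sef1-bound genes. FSH1 (SAKL0G10780g), named for a serine hydrolase, read -4.65, -5.31, -4.73 and -5.38 where labelled YPD and 0.89, 0.89, 0.78 and 1.00 where labelled YPGly, 60-fold higher. MRH1 (SAKL0D03652g), named for a membrane protein, was higher by 56.2-fold, the inositol transporter ITR1 (SAKL0C11066g) by 12.7-fold and the unnamed SAKL0H11770g by 30.7-fold. The largest increase of all was YPL272C (SAKL0E00792g), of unknown function, at 146-fold (log2 7.19 ± 0.16), but it was well above background on only 2 of the 4 arrays labelled YPD, its lower bound was 95.7-fold, and it was chosen after its values were seen. On the other side stood SPG4 (SAKL0E03696g), named for a gene needed in stationary phase, at 199-fold lower, and YJR096W (SAKL0F02574g), named for a sugar reductase, at 156-fold lower. The unnamed SAKL0H07018g, 1 of the genes assigned to Sef1 binding peaks, was also 156-fold lower. For 2 genes, no array of one label gave a signal well above background. Both were dim where labelled YPGly. SAKL0G07700g was tested because all its WT arrays labelled YPD were well above background, and SAKL0G09372g only because of its signal in SEF1-VP16. Both genes were lower where labelled YPGly, by at least 11.9-fold (SAKL0G09372g, adjusted p = 2.3e-07, limma, with 3 of 4 arrays labelled YPD above background) and at least 5.99-fold (SAKL0G07700g, adjusted p = 4.5e-07). These p-values rest on signals not well above background where labelled YPGly, so they give no support beyond the bounds.

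In locus-tag order, both genes were called in 1249 of 5258 adjacent pairs of tested genes, the same way in 708 of them. Over all genes, 47.9% were called, and 103 were higher and 220 lower by at least 4-fold. Pairs of unlinked genes would therefore often agree as well, and their expected share was not computed. When both changed by at least 4-fold, 26 of 36 pairs went the same way. These included CIT3 with PDH1, the MAL11 group, ICL2 (SAKL0B03212g) with REC8, and BDH1 with BDH2, named for butanediol dehydrogenases, which were higher by 2.17 and 2.04 on the log2 scale. Opposite pairs included HXT1 (SAKL0D14960g, -3.68) beside GDH3 (4.41) and SUC2 (5.35) beside RGT2 (SAKL0B00264g, -5.88). By chromosome, the share called higher was 23.9 to 31.1% on chromosomes A, B and D to H, and 19.3% on chromosome C, with 112 genes called higher, 147 lower and a median of -0.03 at the scaling used. Shares by chromosome were not computed at other scalings.

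The SEF1-VP16 arrays carried the same contrast on the same 2 slides, with no array in common. There 1394 genes were called higher (26.5%) and 1049 lower (19.9%), together 46.4%. In fits to the 8 arrays of each strain alone, 2074 genes were called in both strains, 83.0% of the 2499 called in WT and 84.7% of the 2449 called in SEF1-VP16, and all 2074 changed in the same direction. Across 5266 genes, which are not independent replicates, the changes correlated at r = 0.966, a description of arrays that share slides. The difference between the strains was tested as an interaction, and 60 genes (1.14%) were called, 34 with a more positive change in SEF1-VP16 (0.646%) and 26 with a more negative one (0.494%). Of these, 26 were called in both strains, 14 in WT alone, 13 in SEF1-VP16 alone and 7 in neither.

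None of the 60 genes was called in opposite directions in the strains. RGT2 (SAKL0B00264g) changed by -5.88 in WT and -7.49 in SEF1-VP16 (difference -1.60 ± 0.33, adjusted p = 0.025, limma), and CHA1 (SAKL0C00418g) by -5.50 and -4.37 (difference 1.14 ± 0.24, adjusted p = 0.028). CTR3 was higher in WT and near 0 in SEF1-VP16 (1.87 against 0.14, difference -1.73 ± 0.12, adjusted p = 6.1e-07), as was MDH1 (0.62 against -0.11, difference -0.73 ± 0.13, adjusted p = 0.011). BIO3 (SAKL0H11528g), for an enzyme of biotin synthesis, was not called in WT (-0.54) and was lower in SEF1-VP16 (-2.47, difference -1.93 ± 0.19, adjusted p = 6.5e-05), and FTR1 was not called in WT (0.25) and was higher in SEF1-VP16 (1.23, difference 0.98 ± 0.18, adjusted p = 0.0099). For several markers of carbon use no difference was called: JEN1 (SAKL0F02178g) changed by -9.43 and -9.14, ICL1 by -5.99 and -5.50, and PCK1 by -5.92 and -5.15.

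**Figure D4:**
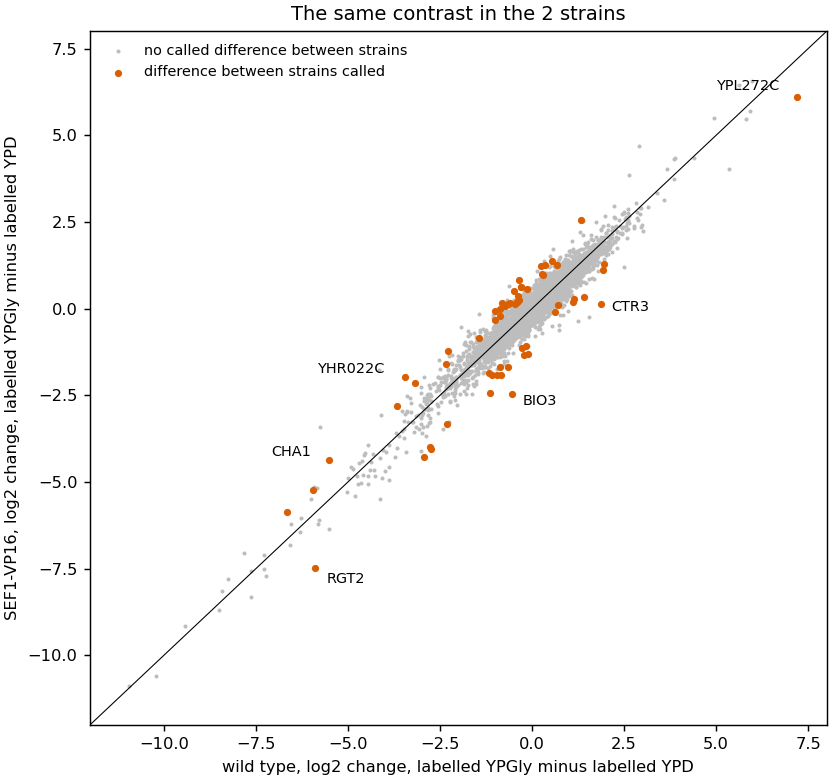
Log2 change (arrays labelled YPGly minus arrays labelled YPD) in SEF1-VP16 against the same change in WT for 5266 genes, with the line of equal change. Orange points are the 60 genes with a called difference between the strains; most genes lie along the line, and CTR3, BIO3, RGT2 and CHA1 stand off it.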

How the data were processed

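The authors hybridised dye-labelled cDNA of each culture to custom Agilent arrays and extracted spots with Agilent Feature Extraction 10.5.1.1, per the labels. The deposited scanner files hold intensity values (a background-subtracted processed signal and median signals), and the analysis used the log2 table deposited with them, whose values are relative to each array's 75th percentile. Its columns matched the log2 processed signal up to 1 constant per array. Spots marked as outliers were treated as missing (108 values over 98 tested genes in WT). The probe with the higher mean per gene was used, and 5266 of 5316 genes were tested, those with a signal well above background throughout 1 group or more. A cross-hybridising probe was used for 33 genes.

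The 4 group means were fitted to 16 arrays with limma 3.58.1 (R 4.3.3), and p-values were adjusted over all genes by Benjamini-Hochberg. In simulated data for 5266 genes, 94 of 100 genes changed by 1 and 100 of 100 changed by 2 on the log2 scale were recovered, with 5 false calls among the unchanged genes. The noise was drawn independently for each gene and array, with no slide effect. The simulation therefore checks the fit and does not give the error rate of the contrast. Alternatives were other scalings, normexp on the median signals (mean signals were not used), the dimmer probe, filters, the methods' t-test, thresholds, array weights, a block for the replicate number and leaving out each array. Gene names came from tables of the study, of which the ortholog table was used only in part, so 2688 tested genes have no name here. Names were matched to lists of S. cerevisiae symbols. The text names genes with the largest changes, the largest of each list, the markers, SEF1 and ACT1, and other list members and genes chosen after their values were seen. The members and lists were chosen with earlier results of these data known. A gene with only a dim signal in 1 group has its fold given as a lower bound, taking the lowest signal well above background on each array as its floor. Genes dim on part of a group have their fitted change printed. The bound stands beside it for SUC2 and YPL272C. It was 5.37-fold for JEN1 (SAKL0D04510g), 5.20-fold for ARG8, 6.72-fold for DBF4 and 2.77-fold for FAS2 (SAKL0E08580g).

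The p-values measure the spread between cultures of 1 experiment.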

Additional observations from a re-analysis of the deposited data

Results flagged for a closer look

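Over 294 groups of 4 arrays of the same label, for genes named by rule, gene lists and array measures, 21 had 1 array far from the other 3. Chance flags about 1 in 20 such groups.

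On the arrays labelled YPD, a low array stood apart for ATG11 (-1.70, against -1.16 to -1.07), ATG26 (0.86, against 1.08 to 1.12), HSP31 (1.34, against 1.95 to 2.00) and AGA2 (1.98, against 2.42 to 2.50). A high array stood apart for UGA4 (SAKL0E14806g, -4.35), SST2 (-0.70), HXT3 (4.46) and ALD6 (-3.16). The mean of the list for acetate, ethanol and lactate use was 1.30 on 1 array labelled YPD against 0.88 to 0.93 on the others. That for glucose sensing and hexose transport was 0.58 against 0.33 to 0.37, and that for mating 0.72 against 0.54 to 0.57.

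On the arrays labelled YPGly, a high array stood apart for SUI1 (1.38), RGT2 (SAKL0D10450g, 1.01), RPL34B (2.63) and LYS21 (SAKL0H09746g, -0.15), and a low array for ERG28 (0.72) and ERG4 (1.41). The mean of the cytosolic ribosomal proteins was 3.30 on 1 array, WT YPGly replicate 2, against 3.02 to 3.04 on the others. The acetate, ethanol and lactate list had 1 array at 0.057 against -0.23 to -0.20, the iron list 1 at -1.55 against -1.65 to -1.64, and the autophagy list 1 at -1.34 against -1.22 to -1.20.

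Between the strains, 60 genes had a called difference in the change (limma, interaction). Among the genes named here these included RGT2 (SAKL0B00264g, difference -1.60, SEF1-VP16 minus WT), CHA1 (SAKL0C00418g, 1.14), CTR3 (-1.73), MDH1 (-0.73), BIO3 (-1.93), YPL272C (-1.08), FTR1 (0.98) and IMA1 (SAKL0A05698g, -1.03).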

How the results depend on the processing

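Without a fold limit, 2196 genes were called higher and 1556 lower, and with a 2-fold limit 663 and 618. Leaving out each WT array in turn gave 1353 to 1523 higher and 1051 to 1139 lower. The replicate numbers did not pair the samples: deviations of arrays with the same number correlated at 0.375, 0.271, -0.459 and 0.211, and 2 of 4 labelled YPD arrays correlated best with their own number. With a replicate block, 1447 genes were called higher and 1083 lower.

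In the count called higher minus the count called lower, 20 of 25 gene lists kept their sign under the alternatives run for lists. These were other scalings, normexp, the dimmer probe, the strain's own arrays, the adjusted t-test, the replicate block and leaving out each array. Other thresholds, filters and array weights were not run for lists. The exceptions were glycolysis (0), with 1 higher and 4 lower with median centring and 6 and 2 with quantile normalization, nitrogen (0), with 11 and 8 with the dimmer probe, the proteasome (2), at 0 with median centring, the Sef1-bound genes (-1), with 174 higher and 228 lower with median centring, at 1 with quantile normalization and with normexp background correction, 20 with the dimmer probe and -16 to 20 when an array was left out, and the iron list (-1), at -2 to 2 when an array was left out. SEF1 (0.09) was at -0.025 with median centring, -0.038 with quantile normalization and -0.071 with the dimmer probe, never called. Over 120 genes named by rule, 2592 of 2632 alternative values kept their direction and their side of the threshold. Most of these genes were picked for large changes in the same data, and the scanner files repeat the main calls. The count was thus high by construction and is no measure of stability. Other genes named in the text are not in it. The causes of the changes between labels were not tested. Signal over background limits genes that were dim on arrays labelled YPD, such as YPL272C and SUC2, and WT YPD replicate 4 had the lowest share of probes well above background (94.5%).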
